A study of Mus musculus with 22 samples.

Results

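The 100 spots described here were the ones at which mouse mammary tumours fell farthest below a reference RNA made from whole mice. A spot's median-centred ratio was the log2 of its tumour signal over its reference signal, each after subtraction of the local background and not below 16, minus the median of its array. Spots had to be usable on all 22 arrays and to have a reference signal of at least 100 on 12 arrays, those of tumours labelled MMTV_T121 WAPCre p53coco with or without Brca1coco. Of 22575 spots, 7583 met these conditions, and the 100 with the lowest maximum ratio over the 12 tumours were taken. The ratios on those 12 arrays chose the spots, so they are given as a description, and nothing is read from a test on them. The last 2 spots inside the limit had maxima of -3.03 and -3.03, and the first outside it, Colec10, had -3.02.

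A whole-mouse reference holds RNA of liver, brain, muscle, gut, skeleton and every other organ in 1 pool. Each organ makes some transcripts that few other cells make, such as the plasma proteins and detoxifying enzymes of hepatocytes or the synaptic proteins of neurons. A mammary carcinoma consists mainly of epithelial cells, with blood vessels, stroma and immune cells, so a ratio to such a reference compares that mixture with the average of all organs. In bulk RNA, fewer cells of a type and less RNA per cell cannot be told apart.

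Total RNA of 22 end-stage mammary tumours was amplified and labelled with Cy5, and each was hybridised with Cy3-labelled whole-mouse RNA on an array of 2 colours. Between 19.9% and 85.8% of the usable spots had a tumour signal above background, depending on the array, and the number of arrays limits the precision of every comparison. T121 is a fragment of the SV40 large T antigen that inactivates the proteins of the Rb family. WAP and MMTV name promoters active in mammary epithelium, which direct T121 or the Cre recombinase to that tissue where the labels name them. Labels with p53null or p53het name no Cre, so they do not tie the p53 change to that tissue. The labels TgMFT121 and TgMFT21 name neither promoter for T121.

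The 12 tumours that chose the spots were of mixed background and carried MMTV_T121, WAPCre and p53coco. Of these, 8 also carried Brca1coco and 4 did not. Outside the rule were 6 tumours of mixed background with 1 array each. They were labelled TgMFT121 TgWAPCre p53coco, TgMFT21 TgWAPCre p53coco, MMTV_T121 MMTVCre p53cohet, MMTV_T121 WAPCre p53cococ, MMTV_T121 WAPCre p53cohet and WAPCre p53coco Brca1coco, the last with no T121 in its label. The remaining 4 tumours carried WAP_T121 without Cre: 1 in BALBc, and 3 in B6D2F1, of which 2 were p53null and 1 was p53het. The labels do not spell out coco, cohet, cococ or MFT, and give no ages. Whether each tumour is a separate animal is not stated, and the p-values cover only the variation among these 22 samples, some of which may be technical.

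Several arrays stood apart. On 3 of them, those of BALBc WAP_T121, WAP_T121 p53null replicate 1 and WAP_T121 p53het, the reference channel correlated with the median of the other arrays at an r of 0.544 to 0.784 over spots, against at least 0.943 on the other 19. Comparisons that rest on these arrays are given with and without them. The tumour numbered here as p53coco replicate 2 went against its tissue label. The epithelial genes Krt8, Krt18, Epcam and Cdh1 had ratios of -2.31, -2.04, -2.18 and -3.13 there. Their medians in the other 21 were 2.74, 3.80, 3.21 and 1.29. The lowest values in the other 21 were -0.18, -0.63, 0.07 and -1.01. Those of Krt8 and Krt18 were in WAP_T121 p53null replicate 2, so low values were not confined to 1 tumour. The muscle genes Ckm and Acta1 stood at 2.69 and 1.47 in that tumour, above every other tumour, whose highest values were 0.32 and -0.12. The fast muscle myosin Myh4 was 5.31 there but 5.55 in BALBc WAP_T121, 5.12 in p53coco Brca1coco replicate 6 and 3.02 to 3.88 in 3 more tumours, so Myh4 was high in others too. When the rule was applied without that tumour, 95 of the 100 spots were chosen again.

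The platform annotation named a gene for 86 of the 100 spots and none for the other 14. The 86 spots stood for 78 genes, because Chgb held 9 spots. Sorted by what the genes are known to do, 21 genes encoded plasma proteins and other secreted products of the liver, and 14 encoded liver enzymes, carriers and transporters. A further 14 genes, on 22 spots, belonged to the nervous system. Muscle, skeleton, skin and eye gave 11 genes, gut, kidney and salivary gland gave 8, blood cells gave 2, and 8 had other roles. These classes were made after the names were seen and are a description only.

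Promoter sequences of 5 members are shown because liver and nervous system genes made up most of the list, and letters recognised by tissue factors can be looked up in them. The 4 liver genes are the first in order of maximum ratio whose promoter holds GTTAAT, the letters repeated in sites of hepatocyte nuclear factor HNF1, on either strand. Chgb is shown for TGACGTCA, the cAMP response element (CRE). The 250 bases before each start site are given 5′ to 3′ along the gene, from RefSeq's GRCm38.p6 table. Capitals mark GTTAAT, which reads ATTAAC on the other strand. They also mark TATAAA, the letters of the TATA box, which reads TTTATA on the other strand, and the palindrome TGACGTCA. None of the 3 motifs overlaps another in these stretches.
Fabp1: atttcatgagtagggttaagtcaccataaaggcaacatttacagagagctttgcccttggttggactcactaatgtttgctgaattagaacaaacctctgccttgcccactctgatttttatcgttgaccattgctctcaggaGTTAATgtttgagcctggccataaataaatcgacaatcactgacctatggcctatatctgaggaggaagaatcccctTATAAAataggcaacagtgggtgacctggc
Igfbp1: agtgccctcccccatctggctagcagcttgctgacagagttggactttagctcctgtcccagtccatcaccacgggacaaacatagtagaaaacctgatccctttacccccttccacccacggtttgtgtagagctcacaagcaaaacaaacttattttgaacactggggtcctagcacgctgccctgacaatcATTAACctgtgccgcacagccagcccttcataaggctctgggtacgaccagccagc
Cyp2d26: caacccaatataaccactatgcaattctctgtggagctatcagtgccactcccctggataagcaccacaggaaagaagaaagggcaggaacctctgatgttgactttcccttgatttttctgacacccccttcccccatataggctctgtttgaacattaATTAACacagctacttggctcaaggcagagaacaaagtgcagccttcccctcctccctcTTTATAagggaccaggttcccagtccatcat
Afp: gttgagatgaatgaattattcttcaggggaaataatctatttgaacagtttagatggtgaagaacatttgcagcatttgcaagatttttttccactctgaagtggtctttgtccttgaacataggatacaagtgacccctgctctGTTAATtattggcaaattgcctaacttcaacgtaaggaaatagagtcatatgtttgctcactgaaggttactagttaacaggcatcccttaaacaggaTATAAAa
Chgb: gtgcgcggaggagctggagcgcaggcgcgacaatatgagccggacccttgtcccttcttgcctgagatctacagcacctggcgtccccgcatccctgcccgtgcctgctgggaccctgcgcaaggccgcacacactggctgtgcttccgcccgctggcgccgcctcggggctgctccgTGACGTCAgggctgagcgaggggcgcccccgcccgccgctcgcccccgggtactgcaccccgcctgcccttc

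Fabp1 lies at chr6:71199629-71199878 on the plus strand, Igfbp1 at chr11:7197537-7197786 on the plus strand and Cyp2d26 at chr15:82794246-82794495 on the minus strand. Afp lies at chr5:90490464-90490713 on the plus strand and Chgb at chr2:132781392-132781641 on the plus strand. The GTTAAT match began at position -107 from the start site in Fabp1 and at -105 in Afp, and its reverse complement began at -56 in Igfbp1 and at -90 in Cyp2d26. Of the 78 genes, 61 had a promoter in the table. GTTAAT was found on either strand in 9 of these 61 and in 6 of 26 liver genes, against 7.49% of all 27025 promoters. TATAAA was found in 18 of 61 members, against 14.3% of all promoters, and in 0 of 10 nervous system genes. TGACGTCA was found in 1 member, Chgb, where it began at -72, and in 1.77% of all promoters. These matches describe letters in a window and were not tested.

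**Figure D1:**
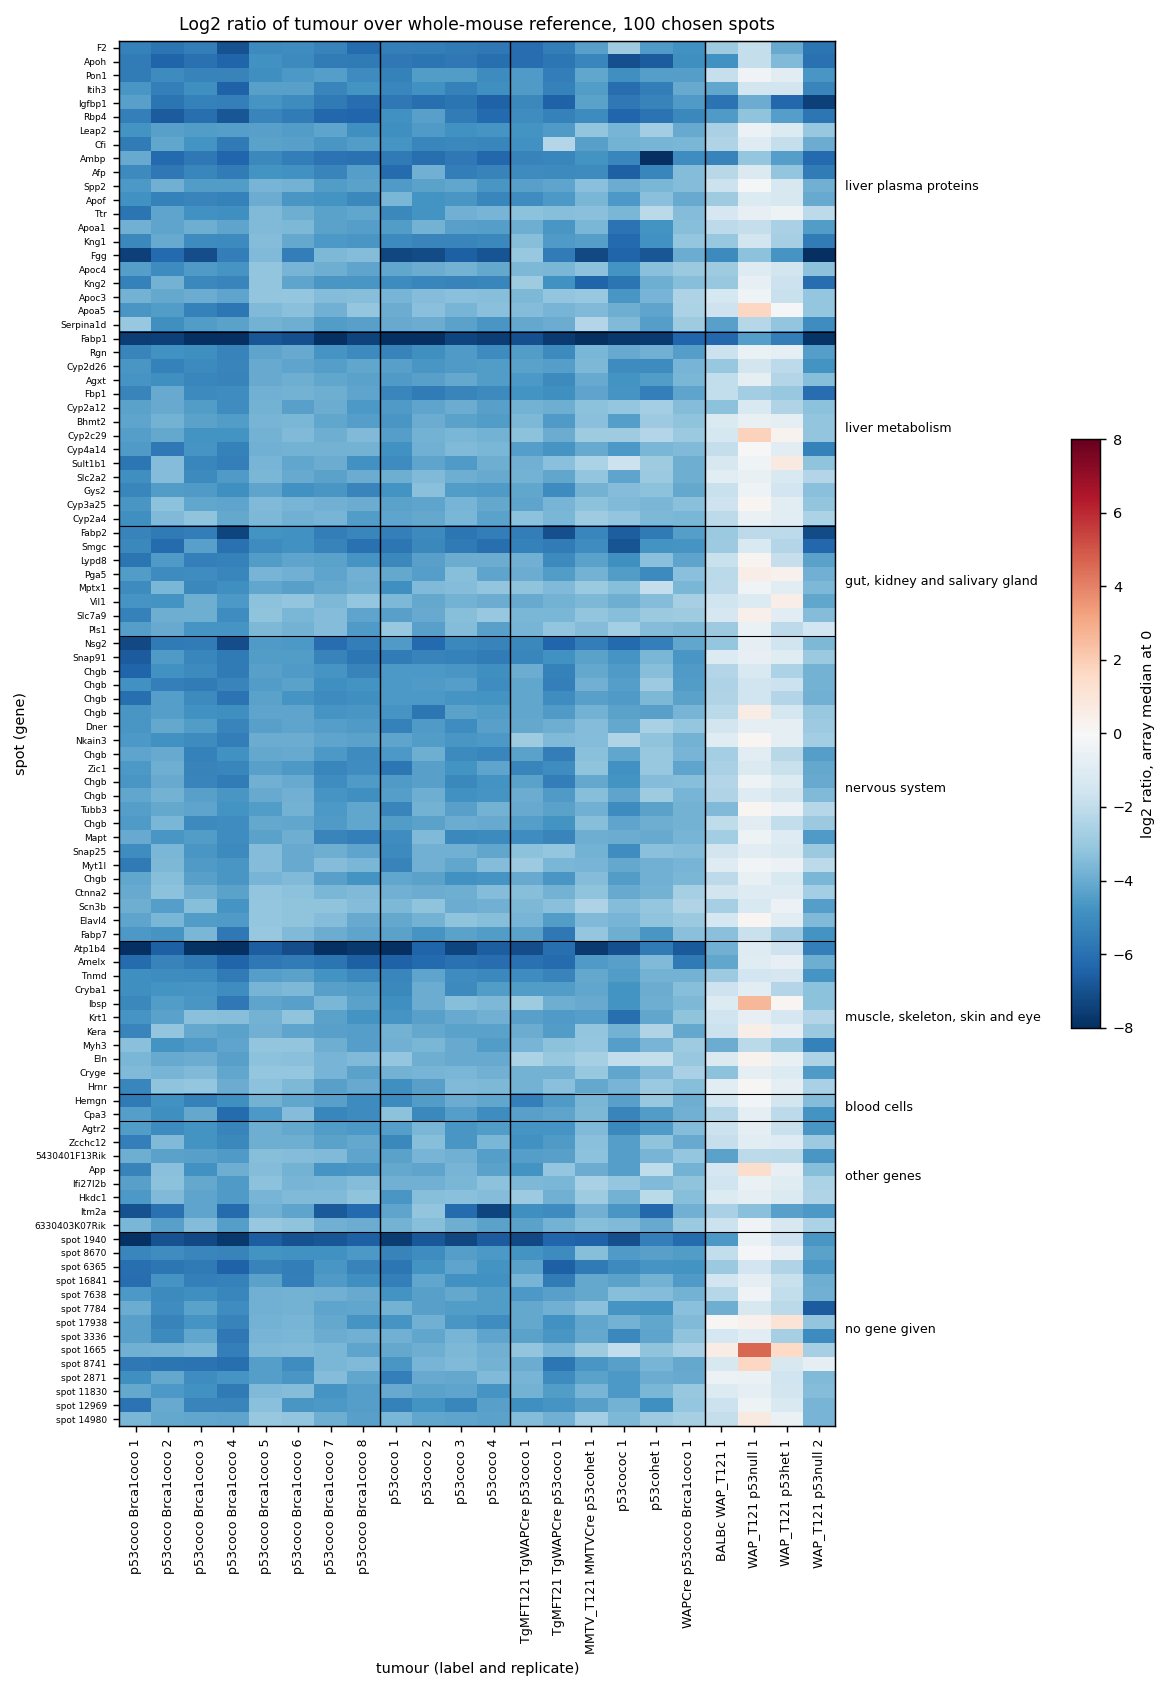
Median-centred log2 ratios of tumour over whole-mouse reference for the 100 spots (rows, by gene role) on the 22 arrays (columns; MMTV_T121 WAPCre is left off the labels of tumours that carry it with p53coco, p53cococ or p53cohet). The 12 columns at the left chose the spots, the next 6 are the other tumours and the last 4 are WAP_T121, of which p53null replicate 1 is the palest with a median of -0.70.

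Ratios on the 12 arrays that chose the spots had means from -7.79 to -3.59 per spot, with a median of -4.50. The spots were bright in the reference: their median reference signal was 10.5 to 20.0 times that of all usable spots on these arrays. In the tumour channel their median signal was 0.398 to 1.01 times that of all usable spots. Of the 100 spots, 16 were above background in all 12 tumours, 69 in some and 15 in none. For a spot at background in the tumour channel the ratio is a limit that depends on the brightness of the reference. Over the 100 spots, mean reference brightness and mean ratio had a Pearson r of -0.53 and a Spearman rho of -0.50; both share the reference signal.

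The liver genes held the lowest ratio of all. Fabp1 (spot 1385), which encodes the fatty acid binding protein of hepatocytes and gut lining, ran from -8.94 to -6.83 in the 12 tumours, with a median of -7.53. Its reference signal ran from 14074 to 47667 on these arrays and its tumour signal from 40.0 to 266. The next spot, number 1940, has no gene named and a maximum of -6.55. Among the plasma proteins were the clotting factors F2 (prothrombin) and Fgg (fibrinogen gamma chain), the kininogens Kng1 and Kng2, the complement regulator Cfi, and the apolipoproteins Apoh, Apof, Apoa1, Apoa5, Apoc3 and Apoc4. The carriers Rbp4 (retinol) and Ttr (thyroid hormone and retinol), the fetal plasma protein Afp and the antitrypsin Serpina1d were also there. Enzymes included 6 cytochromes P450 (Cyp2a4, Cyp2a12, Cyp2c29, Cyp2d26, Cyp3a25 and Cyp4a14), the gluconeogenic Fbp1, the liver glycogen synthase Gys2 and Agxt, which detoxifies glyoxylate. Kng1 and Kng2, the Cyp2a and Cyp2c genes and Serpina1d have near-identical relatives in the mouse genome, so their spots may take RNA of more than 1 gene.

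Nervous system members covered synaptic proteins (Snap25, Snap91), the neuronal cytoskeleton (Tubb3, Mapt), an RNA-binding protein of neurons (Elavl4), transcription factors (Zic1, Myt1l), the Notch ligand Dner and the radial glia protein Fabp7. Chgb, a secretory granule protein of neurons and endocrine cells, was the only gene with more than 1 member spot. The array holds 10 spots annotated to it, of which 9 were usable and all 9 were members. Averaged over its spots, Chgb ran from -5.16 to -4.12 in the 12 tumours, with a median of -4.69. Within an array, the 9 spots had an SD of 0.16 to 0.82 with a median of 0.38 on the 19 arrays, and the mean over its 9 spots had an SD of 0.33 between the 12 tumours.

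Members of other tissues were led by Atp1b4 (spot 1365), a muscle relative of the sodium pump's beta subunit, with a median of -7.53 and a highest value of -6.38 in the 12 tumours. Amelx, the enamel protein amelogenin, ran from -6.52 to -5.33. The tendon gene Tnmd, the bone gene Ibsp, the lens crystallins Cryba1 and Cryge, the cornea gene Kera and the epidermal genes Krt1 and Hrnr were also members. From the gut and glands came Fabp2 of the intestinal lining, the brush border gene Vil1, pepsinogen (Pga5) and Smgc of the submandibular gland. Blood cells gave Hemgn of red cell precursors and Cpa3 of mast cells.

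Over the 12 tumours the SD of the members ran from 0.24 (Leap2, a liver peptide) to 1.54 (Fgg), with a median of 0.54. These SDs cannot show that the members varied little, because the rule capped their high values in these same tumours. Most members were also at background in the tumour channel on some or all of these arrays, and the SD of other spots was not compared. Fgg (spot 919) stood at -7.31, -7.14, -6.55 and -6.88 in the 4 p53coco tumours. In the 8 p53coco Brca1coco tumours it stood at -7.50, -6.23, -7.08, -5.52, -3.52, -5.53, -3.62 and -3.45. Replicates 5, 7 and 8 were thus the 3 highest of the 12 tumours, and the groups overlapped. The tumour signal of Fgg was above background in all 12, from 108 to 2601, so its spread was measured on both channels. Itm2a, a membrane protein of differentiating cartilage, muscle and T cells, had the next highest SD at 1.40, with its lowest value of -7.32 in p53coco replicate 4 and its highest of -3.13 in p53coco replicate 2. That second tumour was the one with the lowest Krt8, Krt18, Epcam and Cdh1 and the highest Ckm and Acta1. Whether its make-up had a part in this value was not tested.

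Whether the same spots were low in tumours that played no part in choosing them was asked in the other 10 tumours. All 100 were below the reference at an adjusted p under 0.05, against 14.6% of the 19317 spots tested and 25.6% of the 7583 the rule could choose from (limma, loess ratio against 0, Benjamini-Hochberg adjustment over all spots). No member was higher, against 8.97% of all spots. The median loess ratio of the members was -3.01, against 0.00 for all spots, and the highest adjusted p was 0.0126. Both sets of tumours were measured against the same kind of reference and with the same dyes, so a dye effect of a spot would recur as well; it cannot be told apart from a difference in RNA.

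Fabp1 had the lowest mean loess ratio over the 10 tumours, -7.34 (SE 0.25, n = 10, adjusted p = 3.9e-08). Its median-centred ratios were -7.06, -7.65, -8.09, -7.74, -7.65 and -6.34 in the 6 mixed-background tumours in the order named above. In BALBc WAP_T121, the p53null tumours and WAP_T121 p53het they were -6.29, -4.41, -7.86 and -5.53. Every one of these was below the limit of -3.03 that the chosen spots met on the first 12 arrays, and the highest was on an array with an unlike reference channel. Igfbp1, a liver-secreted binding protein of insulin-like growth factors, had a mean loess ratio of -6.74 (SE 0.23, adjusted p = 3.9e-08). Its median-centred ratios were -5.19, -6.46, -4.31, -5.71, -5.35 and -4.53 in the 6 tumours and -5.91, -3.98, -7.46 and -6.31 in the 4 WAP_T121 tumours.

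The smallest held-out differences were those of Ttr, at -1.65 (SE 0.32, adjusted p = 0.00525), and Sult1b1, a sulfotransferase of liver and gut, at -1.69 (SE 0.28, adjusted p = 0.00273). These differences are means of loess ratios. On the median-centred scale Ttr stood at -3.27, -3.41, -3.35, -3.64, -2.16 and -3.45 in the 6 tumours and at -1.33, -0.67, -2.12 and -0.43 in the 4 WAP_T121 tumours. Its tumour signal was not well above background on any of the 22 arrays, and it came out 2.16-fold lower than the reference over the 10 tumours. For this value, tumour signals below the array's dimmest detected signal were set to that signal before the channels were divided. A spot's own background limit can lie above that signal, so the value is not a strict lower bound. Dyes were not swapped, so a dye bias would enter it. By the same calculation Atp1b4 was 15.2-fold lower, Hemgn 3.93-fold, Snap91 3.67-fold, Zcchc12 3.40-fold and Kera 3.33-fold. In all, 9 members were above background in none of these 10 tumours, so their ratios are limits.

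By role, the plasma proteins had a median loess ratio of -4.0 in the 10 tumours, with members from -6.74 to -1.65. Liver enzymes and carriers had a median of -2.54, gut, kidney and salivary gland -2.94, muscle, skeleton, skin and eye -3.0 and the nervous system -2.76. The 14 spots without a gene had a median of -2.98. These medians do not rank the roles, because the roles differed in how often the tumour signal was above background. Of the 22 arrays the median was 16 for plasma proteins, 5.5 for liver enzymes and carriers and 6 for the nervous system. On the 12 arrays that chose the spots, the median-centred ratios of these 3 roles had closer medians, -4.83, -4.40 and -4.56. Among the plasma proteins besides Igfbp1, the lowest were Fgg at -6.30, Rbp4 at -6.00 and Ambp, the precursor of alpha-1-microglobulin, at -5.97. Fbp1 stood at -5.11 and Fabp2 at -5.25. Within the nervous system the lowest was Nsg2, an endosomal protein of neurons, at -4.40, and the 9 Chgb spots lay between -3.21 and -2.53.

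On the median-centred scale, 78 members were below 0 in all 10 tumours, against 5.82% of the spots the rule could choose from. In the 7 tumours with a like reference channel all 100 were, against 13.1%. The limit of -3.03 was met in all 6 mixed-background tumours by 59 members, against 1.17%, and by 30 of the 7483 other spots the rule could choose from. Only 4 members met it in all 10, which is 0.0527% of those spots: Fabp1, Igfbp1, Rbp4 and Ambp, all genes of the liver. These 4 were therefore below that limit on every one of the 22 arrays, and were chosen for mention after their values were seen. Because tumour signals were not taken below 16, a spot dim in the reference could not reach the limit, whatever its tumour signal. On WAP_T121 p53null replicate 1 the members' median reference signal was 62.5, so the count over all 10 depends on reference brightness.

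**Figure D2:**
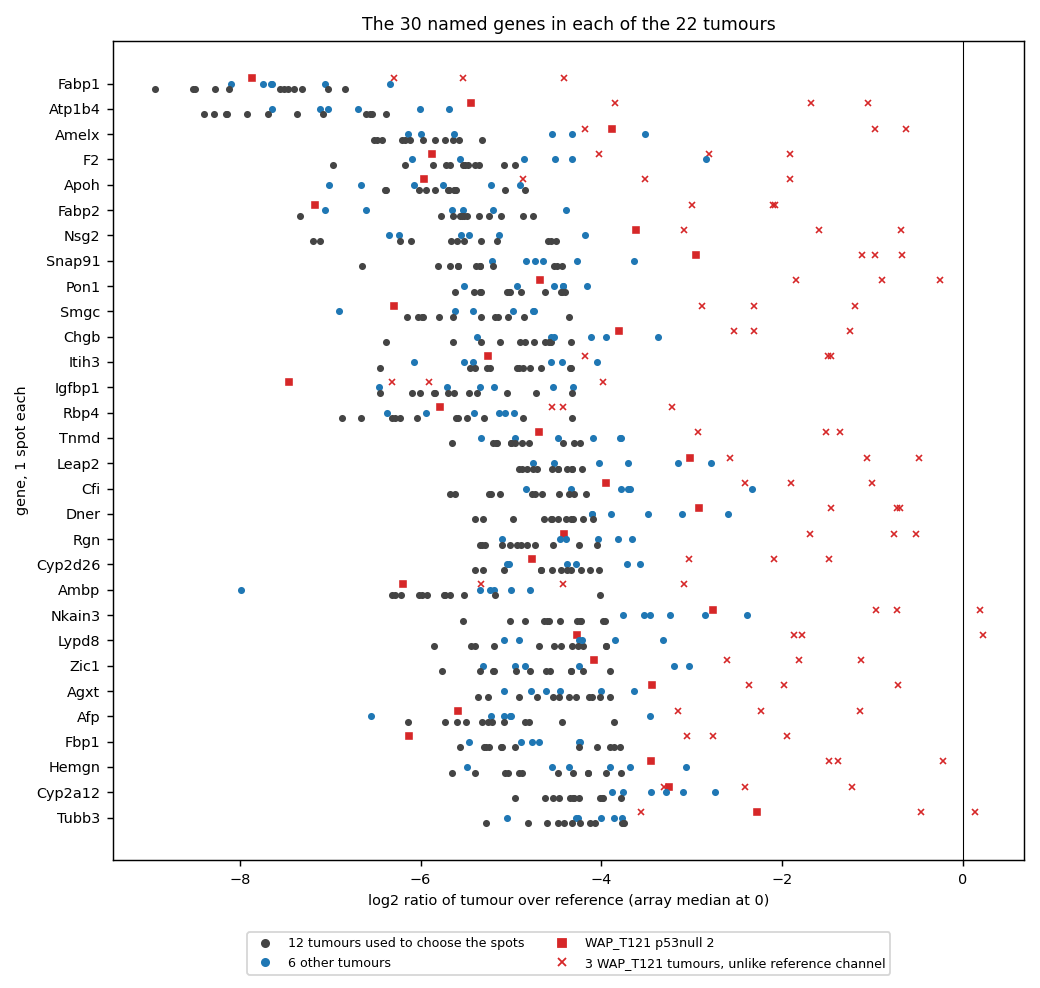
Median-centred log2 ratios of 30 named genes, 1 spot each, in every tumour; grey points chose the spots, blue points are the 6 mixed-background tumours outside the rule, and red marks are the 4 WAP_T121 tumours. Crosses, from the 3 arrays with an unlike reference channel, lie nearest to 0 for most genes, while Fabp1, Igfbp1, Rbp4 and Ambp stay below -3.03 throughout.

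Without the 3 arrays with an unlike reference channel, the 100 members were again lower, against 17.8% of all spots, with a median of -3.72. In the 6 mixed-background tumours alone they were lower too, against 18.7%, with a median of -3.91. In the 4 WAP_T121 tumours alone, 8 were lower, against 0.155% of all spots, with a median of -1.59. On the 3 arrays, the members' median reference signal was 1.25 to 2.31 times that of all usable spots, against 7.11 to 20.0 times on the other 19. Their median-centred ratios had medians of -2.08 in BALBc WAP_T121, -0.70 in p53null replicate 1 and -1.44 in p53het, against -5.19 to -3.70 on the 19.

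**Figure D3:**
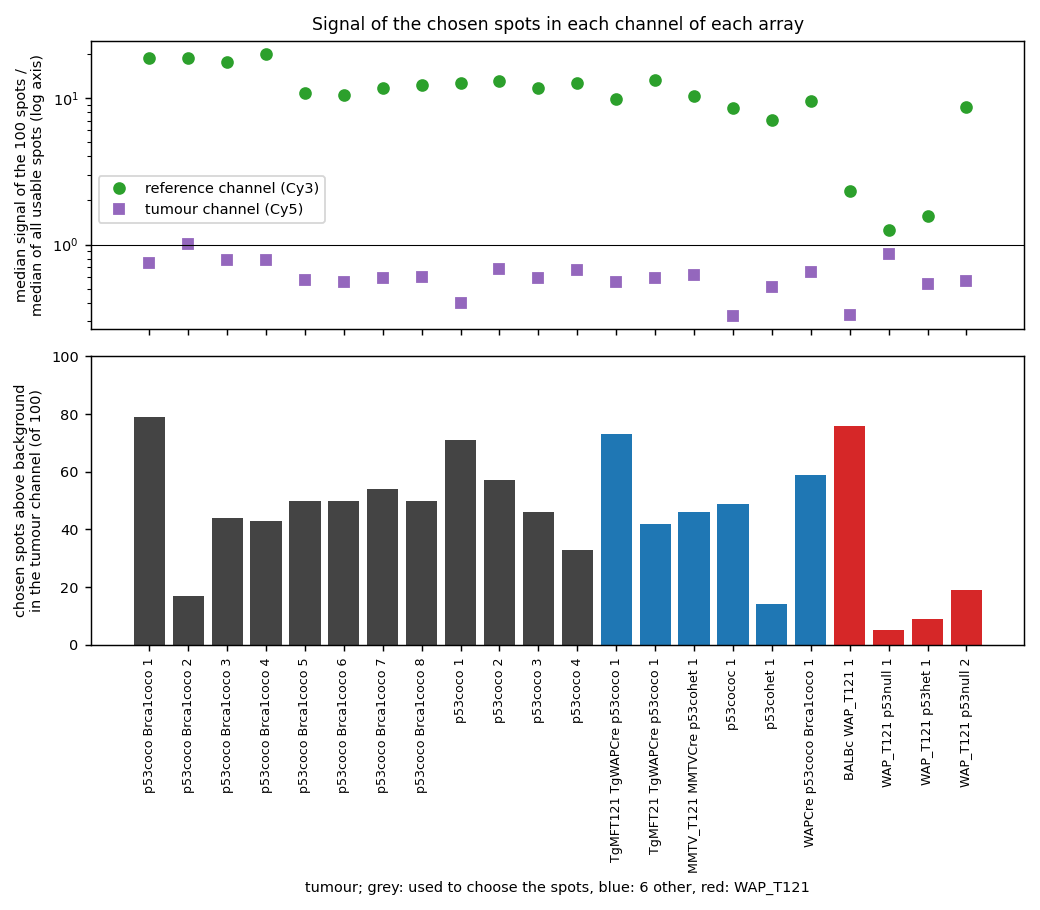
Top, median signal of the 100 spots over the median of all usable spots in the reference (circles) and tumour (squares) channel of each array, on a log axis; bottom, number of the 100 above background in the tumour channel. The reference circles fall to between 1.25 and 2.31 on 3 WAP_T121 arrays, while the tumour squares lie between 0.326 and 1.01 on all 22.

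The WAP_T121 tumours were compared with the 6 mixed-background tumours, a contrast of promoter, strain, Cre and p53 label together. The WAP_T121 tumours were p53null, p53het or had no p53 entry, while the 6 were p53coco, p53cococ or p53cohet. In addition, 1 of the 6 had no T121 in its label and carried Brca1coco. Loess ratios were higher in the 4 WAP_T121 tumours at 69 of 100 members, against 6.52% of all spots tested and 11.1% of those the rule could choose from. None was lower, against 1.64%. The median difference was 2.34, against -0.02 for all spots, and at 58 members the groups did not overlap, against 6.92% of all spots. All 9 Chgb spots were among the 69, with differences of 1.81 to 2.69; they count for 1 gene.

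Much of this difference lay in the reference channel. Scaled between arrays, the members' median difference was -1.47 for reference signals and 0.69 for tumour signals, and at 56 of the 69 called spots the reference channel differed more. Without the 3 arrays with an unlike reference channel, 0 members were higher at an adjusted p under 0.05, against 0.336% of all spots, and 34 had an unadjusted p under 0.05, against 11.8%. After scaling the arrays to a common spread, 25 were higher, against 3.7% of all spots, and 2 were lower, against 0.896%; by the floored, median-centred ratio 8 were higher, against 0.3% of all spots. The fit without the 3 arrays rests on p53null replicate 2 alone, which is assumed to vary like the other tumours, and its median difference was 1.18. In loess ratios this tumour was above all 6 others at 70 members, against 21.3% of all spots. On the median-centred scale its member median of -3.78 lay inside the range of the 6, from -4.55 to -3.70. Its array was also dim, with members at a reference median of 525 against 954 to 3303 on the 6 arrays; the part of brightness in its loess ratios was not tested.

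Krt1, a keratin of the upper epidermis, had a loess ratio 3.32 higher in WAP_T121 (limma, adjusted p = 0.0128). Its loess ratios were -0.90, -0.36, -1.46 and -1.32 in BALBc WAP_T121, the p53null tumours and p53het, against -6.43 to -2.95 in the 6 others, so the groups did not overlap. Its tumour signal was above background on 3 of these 10 arrays, so most of the ratios are limits. Atp1b4 was above background in the tumour channel on none of the 10, and its fitted difference of 3.53 (SE 0.89, adjusted p = 0.0380) is one between limits, not a measured change. Its loess ratios were -4.35, -0.53, -4.01 and -1.11 against -7.35 to -4.29, and the groups overlapped. Its tumour signal was 5 to 51, while its reference signal was 60 to 1071 on the WAP_T121 arrays and 1029 to 11287 on the 6, a difference of -2.39 after scaling between arrays. The call for Atp1b4 was lost without any 1 of p53null replicate 1, p53het, TgMFT121, MMTVCre p53cohet, p53cococ and the tumour without T121. Without the 3 arrays neither gene passed, at differences of 2.87 for Krt1 and 2.02 for Atp1b4.

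Only Igfbp1 and Serpina1d had lower loess ratios in WAP_T121. The differences were -1.12 (adjusted p = 0.0838) and -1.27 (adjusted p = 0.100), and neither passed. For Serpina1d the tumour channel was above background on all 22 arrays, and its difference was -1.59 there and -0.33 in the reference channel. For Igfbp1 the tumour channel differed by -0.99 and the reference channel by 0.12. The Serpina1d difference was -0.80 without BALBc WAP_T121 and -0.42 without the 3 arrays, while without p53null replicate 2 it was -1.55 (limma, adjusted p = 0.0495) and passed. The Igfbp1 difference was -0.73 without the 3 arrays. Both passed by the authors' ratios, at -1.65 for Serpina1d and -1.99 for Igfbp1, and after scaling the arrays to a common spread, at -2.74 and -3.02.

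**Figure D4:**
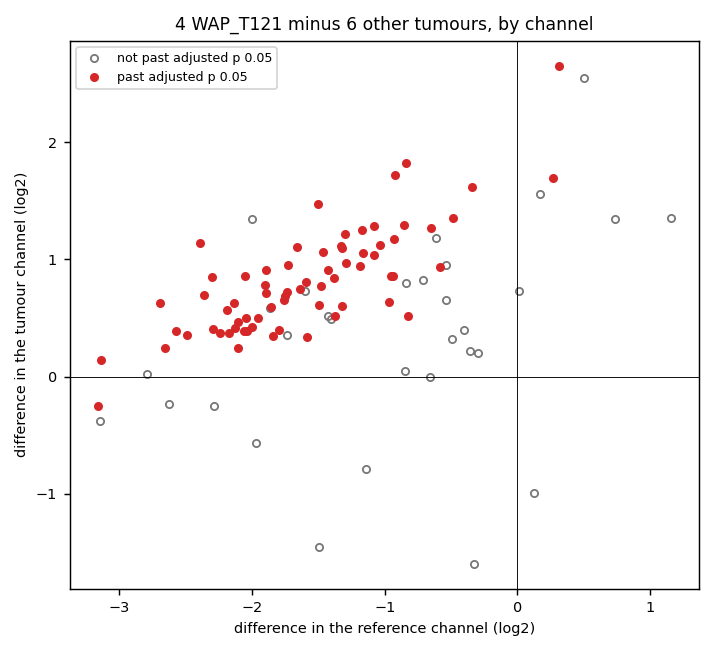
Difference of the mean log2 signal, 4 WAP_T121 minus 6 mixed-background tumours, of the reference (x) and of the tumour channel (y), 1 point per chosen spot; filled points passed the test of the ratio at an adjusted p of 0.05. Most filled points lie left of 0 on the x axis, and the members' medians are -1.47 (x) and 0.69 (y).

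Brca1coco was compared among the 12 tumours that share MMTV_T121, WAPCre and p53coco, 8 with Brca1coco and 4 without. Across the array no spot passed, which is 0.0% of the 19317 tested (limma). The rule took a low maximum over both groups, which limits how far any member could differ between them, so the members' differences are given as a description with no test. They ran from -1.07 to 1.17 with a median of -0.19, against -0.01 for all spots. Of the 100, 88 were negative. The share of negative differences over all spots is not given, so nothing is read from that count. Control spots dark in the reference channel set apart 5 of the 12 arrays, 3 of the 4 p53coco tumours and 2 of the 8 with Brca1coco, so the labels and the array sets were unevenly mixed. The members' median was -0.01 with the array set as a block, 0.35 in one set of arrays, -0.25 in the other, and 0.30 after scaling the arrays to a common spread.

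Fgg had the highest difference, 1.17 in loess ratios, while its values listed above are median-centred. It was 2.20 with the array set as a block, 2.64 within the dark set, 1.59 within the other set and 2.20 after scaling, and 0.82 without p53coco replicate 1. Fbp1 followed at 0.51, with 0.86 as a block, 0.73 and 1.04 within the dark and the other set, and 1.23 after scaling; without p53coco replicate 1 it was 0.28. The lowest differences were those of spot 8741, with no gene named, at -1.07, and Rbp4 at -0.94. The difference of spot 8741 was -0.23 with the array set as a block and -0.22 and -0.24 within the dark and the other set. Rbp4 stood at -4.87, -4.33, -5.60 and -6.23 in the p53coco tumours and at -5.49, -6.66, -6.04, -6.87, -5.30, -5.59, -6.28 and -6.32 with Brca1coco on the median-centred scale, and the groups overlapped. Its difference was -0.86 as a block, -1.03 and -0.62 within the dark and the other set, -0.25 after scaling and -0.61 without p53coco replicate 2.

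**Figure D5:**
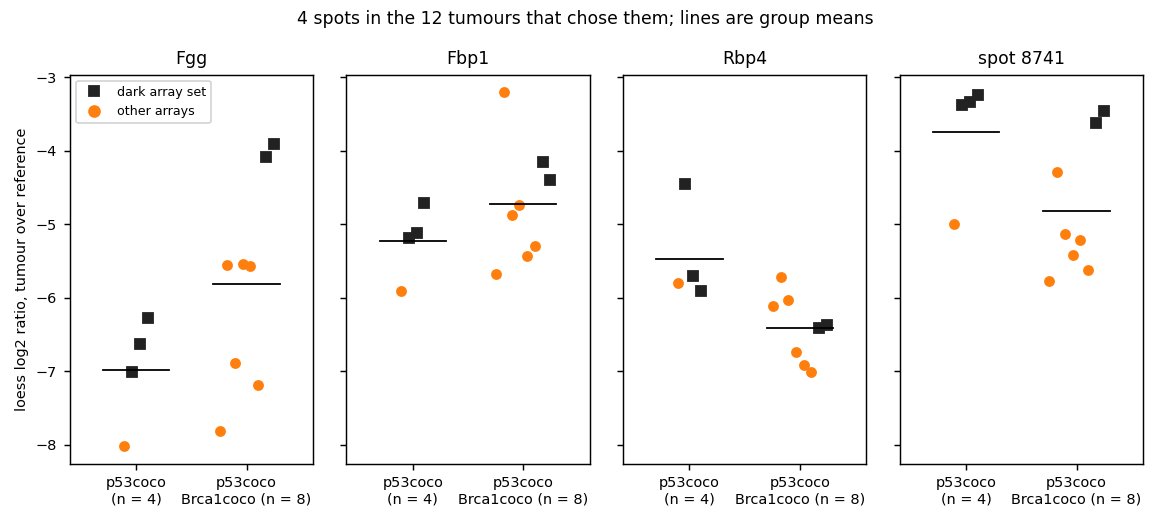
Loess log2 ratios of Fgg, Fbp1, Rbp4 and spot 8741, the spots with the 2 highest and 2 lowest group differences, in the 4 p53coco and 8 p53coco Brca1coco tumours; lines are group means, and black squares are the 5 arrays of the dark set. The groups overlap at each spot, and for spot 8741 the squares of both groups lie above all the circles.

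Organ marker lists show what the 100 spots left out. Of 58 genes listed for 10 tissues, 49 were tested: 35 were lower than the reference in the 10 tumours outside the rule, against 14.6% of all spots, 1 was higher (Tnp1 of testis), against 8.97%, and 4 were members (Apoa1, Apoc3, Ttr and Snap25). Without the 3 arrays with an unlike reference channel 35 were lower and 2 higher: S100a8 of blood cells no longer passed as lower, and Cpa1 of pancreas (lower) and Prm2 of testis (higher) did. All 8 liver genes tested were lower in the 10 tumours, with a median loess ratio of -2.99. Alb, the main plasma protein, had a mean loess ratio of -5.16 in these 10. Its median-centred ratios ran from -6.23 to -1.46 in the 10 tumours and from -4.25 to -1.42 in the 12. The maximum of Alb in the 12 lay above the limit of the rule, so it was no member. In the muscle list 8 of 9 genes were lower, in fat 3 of 3 and in stroma 4 of 4, with medians of -2.66, -3.04 and -2.85, and none was a member. Median-centred, Ckm ran from -5.04 to 2.69 in the 12 tumours, Fabp4 of fat from -4.53 to 0.08 and Dcn of stroma from -4.33 to 0.71. Their maxima thus lay above the limit. By contrast, the embryonic muscle myosin Myh3, a member, ran from -4.79 to -3.14 and stood at -3.66 in p53coco replicate 2. The brain list had 4 of 7 lower, the kidney list 1 of 4 and the testis list 0 of 4. Among 9 mammary epithelial genes Krt8, Krt18 and Epcam were higher, at 1.14, 1.71 and 1.86. The basal keratin Krt5 was lower, at -2.36 (limma, adjusted p = 0.0254). Without the 3 arrays Krt5 was at -2.35 and did not pass (limma, adjusted p = 0.0564), while the milk protein gene Csn2 passed as higher. Csn2 was at 2.83 with these arrays (limma, adjusted p = 0.0543) and at 3.86 without them (limma, adjusted p = 0.0369).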

How the data were processed

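Tumour RNA (Cy5) and whole-mouse RNA (Cy3) were hybridised together on 22 arrays, with no dye swap, per the labels. Per the file headers, the deposited tables give intensity (linear) of signal and local background in both channels. A log2 ratio, tumour over reference, was made by the authors with lowess, per the file headers; 0 values of the series table differed from it by more than 0.001, and it served as an alternative. No source used here names the scanner.

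Spots that were control in either of the patterns on the arrays (1910) or marked unusable on any array (1267 more) were left out, leaving 19398. Genes came from GEO's platform annotation, which can be old: of all spots, 18218 have 1 gene, 16 several and 4341 none here. Member symbols checked through RefSeq gene identifiers needed 0 changes. The members, classes and lists were chosen with earlier results of these data known, and the classes after the gene names were seen.

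In limma 3.58.1 (R 4.3.3), normexp with an offset of 50 removed the background and loess normalized each array, control spots having weight 0. A spot was tested if either channel exceeded its local background by 2 SD on at least 4 arrays, which gave 19317 spots and all 100 members. P-values of lmFit and eBayes were two-sided and were adjusted by Benjamini-Hochberg over all tested spots, with a threshold of 0.05. The 10 tumours outside the rule were fitted alone for the ratio against 0 and for WAP_T121 against the rest; Brca1coco was tested in a fit of all 22 arrays with 1 mean for each of 11 groups. Channel differences used Aquantile scaling. Genes named are the members with the lowest maximum ratio, the 2 highest and 2 lowest differences of each comparison, and 30 named members in order of maximum ratio; others were chosen after their values were seen. The fits were tested on simulated data with known changes. The alternatives changed background, normalization, filter, scaling, arrays and weights. Array sets were found from control spots that were dark on 5 arrays in the reference channel; slides and scan dates are not in the labels.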

Additional observations from a re-analysis of the deposited data

Results flagged for a closer look

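Of 72 groups of 8 or 4 tumours checked for a lone value among the named spots, 2 held one, a count that can arise by chance. The groups include tumours whose ratios chose the spots, so nothing more is read from this count. In the tumours that chose the spots the rule capped high values, so a lone low value was the likelier kind. Both lay in p53coco Brca1coco replicate 4: Fabp2 stood at -7.33 there, against -5.64 to -4.76 in the 7 others of its group, and Dner, the neuronal Notch ligand, stood at -5.31, against -4.64 to -4.10. The WAP_T121 tumours differed from the 6 mixed-background tumours at 69 members by the test of the difference, among them Krt1 (3.32) and Atp1b4 (3.53), whose tumour signals were at background on most or all arrays; without the 3 arrays with an unlike reference channel no member passed.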

How the results depend on the processing

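All 100 members stayed lower than the reference in the 10 tumours with each of these left out in turn (100 to 100), with no background correction, with the authors' ratios, without a filter and after scaling. By the floored, median-centred ratio 99 passed, against 21.3% of all spots. Of the 71 members left by a filter on the tumour channel all 71 passed, against 15.1% of the spots left. Chosen without p53coco replicate 2, an alternative added after seeing the data, all 100 of the new list passed. The 4 WAP_T121 tumours alone called 8, against 0.155% of all spots. In the WAP_T121 contrast the count of higher members was 69, but 8 by the floored ratio, 25 after scaling and 0 without the 3 arrays; over all spots the shares were 6.52%, 0.3%, 3.7% and 0.336%. It was 39 to 80 with 1 array left out, with 39 without p53null replicate 1 (2.67% of all spots), 41 without p53het (2.73%) and 80 without p53null replicate 2 (7.95%). By the authors' ratios it was 52 (5.4%) and in the fit of 22 arrays 85 (10.5%). The count of lower members was 0, but 2 by the authors' ratios (1.62% of all spots), 2 after scaling (0.896%) and 2 in the fit of 22 arrays (10.2%), and 0 to 1 with 1 array left out; the 1 came without p53null replicate 2. The cause was not tested. For Brca1coco the choice of the spots keeps their counts (0 to 0 with 1 array left out) from being read. No result reversed its sign past the threshold. No paired analysis was possible because the labels do not match tumours to one another. Replicate numbers were given here and are not in the labels. Dim tumour signal limits the ratios: 15 members were above background in none of the 12 tumours.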

Other observations

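Among the 14 spots without a gene name, spot 1665 had a median-centred ratio of 4.62 in WAP_T121 p53null replicate 1, where the member median was -0.70, and of 1.59 in p53het and 0.59 in BALBc WAP_T121, the other arrays with an unlike reference channel, against -1.95 or lower in the 7 tumours with a like one. Spot 8741 was above background in the tumour channel on all 10 arrays outside the rule and stood at 1.68 in WAP_T121 p53null replicate 1 and at -0.74 in p53null replicate 2, the latter the highest value of any member among the 7 tumours.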
